A study of Mus musculus with 9 samples.

Results

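Of 19938 mouse genes measured on liver arrays, 10 were examined because they differ between knockout livers and fall on 3 chromosomes, mostly near one another: Colec11, Sntg2, Acp1 and G2e3 on chromosome 12, Tmem260, Arhgef40, Rab2b and Cebpe on chromosome 14, and Tedc2 and Pgap6 on chromosome 17. The difference between the knockout groups and the chromosomal position chose the genes, so that difference is given below as a description, without a test. The rule takes the brightest of the probe sets annotated to a gene. It states no threshold, so no gene lies just inside or outside one.

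Livers of males, 8 to 9 weeks old and labelled C57/BL6, were profiled whole in 3 groups of 3 arrays. The first is a cross of the hepatocyte-specific NEMO knockout with mice lacking p21 in every cell, the second the hepatocyte-specific NEMO knockout (NEMOΔhepa), and the third wild type. The cross is called the labelled double knockout because its Cdkn1a signal was not reduced. Liver cells other than hepatocytes keep NEMO in both knockout groups, the driver of the deletion is not given in the sources used here, and no group lacking p21 alone was analysed. The labels number the arrays as separate replicates but do not state that each is 1 mouse, so p-values measure the spread between these samples.

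The genes were assembled by position and have no common pathway in the lists used here. Genes that lie near each other are inherited together in a cross and can share regulatory DNA, while most act in unrelated processes. Colec11 is a secreted lectin that starts complement, Sntg2 an adapter of the dystrophin complex, Acp1 a small tyrosine phosphatase and G2e3 a ubiquitin ligase of the cell cycle. Tmem260 attaches mannose to plexins and receptor kinases in human cells, Rab2b is a Golgi GTPase and Cebpe a transcription factor of maturing granulocytes. Tedc2 belongs to a tubulin complex needed for stable centrioles, and Pgap6 releases proteins from their lipid anchor. No genotype of the mice at these loci was used here, so the part of breeding or of shared regulatory DNA in the differences was not tested.

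Values are log2 expression values, and a difference of 1 is a doubling of signal. Ikbkg, which encodes NEMO, averaged 8.27 ± 0.18 in the labelled double knockout, 8.35 ± 0.12 in the NEMO knockout and 8.87 ± 0.13 in wild type (SD, n = 3 each). Both knockout groups were below wild type, by -0.60 ± 0.11 in the labelled double knockout (limma, adjusted p = 0.00835) and -0.52 ± 0.11 in the NEMO knockout (limma, adjusted p = 0.0184; differences ± SE). The single Cdkn1a probe set, annotated also to 4930567H12Rik, averaged 10.78 ± 0.56 in the labelled double knockout, 10.10 ± 0.53 in the NEMO knockout and 8.67 ± 0.91 in wild type. Its mean was thus highest in the group labelled as lacking p21. The knockout groups overlapped, with a difference of 0.68 ± 0.45 (SE) between them (limma, adjusted p = 0.803). Every direction below that names the labelled double knockout rests on the label. Hepatocyte markers such as Alb and Hnf4a were bright in each group, with list means from 12.79 to 12.82 in the labelled double knockout, 12.74 to 12.79 in the NEMO knockout and 12.79 to 12.84 in wild type. In whole liver, fewer cells of a type and less RNA per cell cannot be told apart.

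The stretches just before the annotated gene starts are shown for the genes with the largest fall and, where any gene was higher, the largest rise on each chromosome, and for Tox4, whose start lies 249 bases from that of Rab2b on the opposite strand. They are 250 bases long, taken from RefSeq on GRCm38.p6 and written 5′ to 3′ on the strand of the gene. Capitals mark matches on either strand to 5 motifs. These are the TATA box written TATAAA, the box written CCAAT, the cell cycle element CHR written TTTGAA, the E2F-type motif written TTCCCGC and the GC box written GGGCGG.
Colec11, chr12:28623331-28623580, minus strand: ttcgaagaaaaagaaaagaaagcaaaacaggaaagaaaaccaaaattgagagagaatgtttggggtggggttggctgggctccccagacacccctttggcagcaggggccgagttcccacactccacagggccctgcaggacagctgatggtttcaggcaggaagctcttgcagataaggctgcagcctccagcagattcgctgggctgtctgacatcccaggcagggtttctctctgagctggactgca
G2e3, chr12:51347980-51348229, plus strand: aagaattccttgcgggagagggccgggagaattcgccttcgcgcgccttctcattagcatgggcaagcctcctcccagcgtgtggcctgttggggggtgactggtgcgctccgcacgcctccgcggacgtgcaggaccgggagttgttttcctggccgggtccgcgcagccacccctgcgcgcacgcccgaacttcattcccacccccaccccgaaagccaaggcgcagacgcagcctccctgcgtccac
Tmem260, chr14:48445873-48446122, plus strand: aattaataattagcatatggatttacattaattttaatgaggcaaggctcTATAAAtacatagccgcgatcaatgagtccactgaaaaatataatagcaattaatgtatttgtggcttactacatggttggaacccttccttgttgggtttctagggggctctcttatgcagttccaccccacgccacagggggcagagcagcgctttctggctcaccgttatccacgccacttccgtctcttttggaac
Rab2b, chr14:52279396-52279645, minus strand: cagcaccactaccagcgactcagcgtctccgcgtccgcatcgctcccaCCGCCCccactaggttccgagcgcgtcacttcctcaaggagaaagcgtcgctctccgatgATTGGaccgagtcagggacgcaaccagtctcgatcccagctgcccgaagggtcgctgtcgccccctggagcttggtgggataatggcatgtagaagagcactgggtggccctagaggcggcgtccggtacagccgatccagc
Tox4, chr14:52278896-52279145, plus strand: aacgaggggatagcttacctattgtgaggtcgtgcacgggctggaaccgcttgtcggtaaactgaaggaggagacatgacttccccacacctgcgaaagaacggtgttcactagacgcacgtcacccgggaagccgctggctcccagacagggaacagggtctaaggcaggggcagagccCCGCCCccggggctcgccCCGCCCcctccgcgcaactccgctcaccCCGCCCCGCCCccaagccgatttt
Tedc2, chr17:24220852-24221101, minus strand: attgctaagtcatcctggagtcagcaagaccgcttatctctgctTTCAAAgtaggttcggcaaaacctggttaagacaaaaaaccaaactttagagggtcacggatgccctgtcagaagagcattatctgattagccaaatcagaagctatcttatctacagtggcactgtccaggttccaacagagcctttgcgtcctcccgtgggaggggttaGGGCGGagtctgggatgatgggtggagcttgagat

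A promoter entry matched 9 of the 10 genes, Cebpe being the other. The 9 promoters had a median GC content of 64% and a median of 19 CpG pairs, beside 52.4% and 6 over all 32851 promoters. A GC box stood in 6 of the 9, and in 32.7% of all promoters. CCAAT stood in 3 (33.8% of all), TATAAA in 1, Tmem260 (12.4% of all), TTTGAA in 1, Tedc2 (16% of all), and TTCCCGC in 1, Arhgef40 (3.82% of all). Matches of a motif that overlap each other were each counted. No motif of these 5 was held by G2e3 and Tmem260 together, the higher genes with an entry, or by all 7 that were lower. The GC box stood in each lower gene but Colec11, and in neither G2e3 nor Tmem260. Its share of all promoters was not matched for GC content.

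Each of the 10 genes separated the knockout groups: the highest array of 1 group was below the lowest array of the other, as for 10.7% of all 28939 probe sets tested, and the choice of genes fixed this. The labelled double knockout lay outside the range of all 6 other arrays in each, as in 4.86% of all probe sets. In the labelled double knockout 7 genes were lower than in the NEMO knockout (5.75% of all probe sets were, without overlap) and 3, G2e3, Tmem260 and Cebpe, were higher (4.99% of all probe sets). Acp1 is counted as lower by its brightest probe set. The median absolute difference was 0.82, beside 0.07 over all probe sets. Arrays of 1 group varied little, with within-group SDs of the genes between 0.0166 and 0.332.

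**Figure D1:**
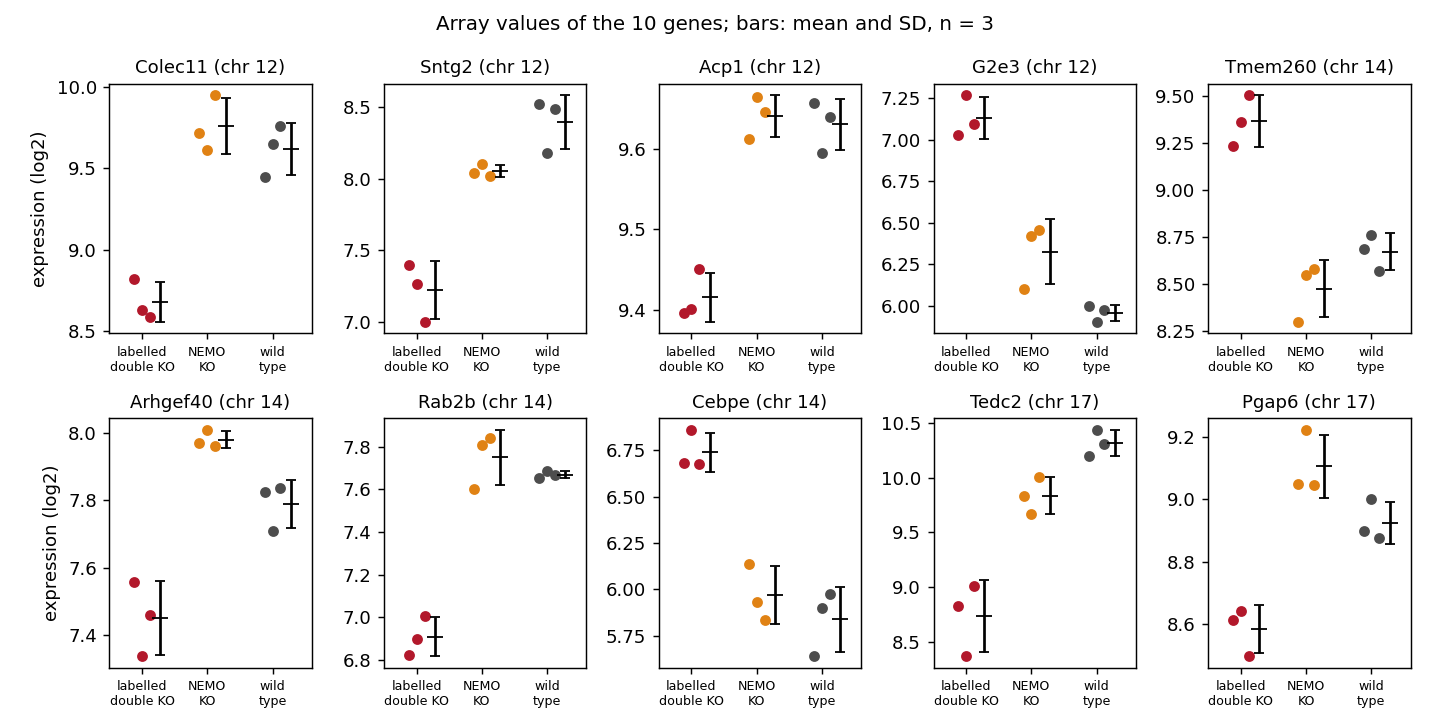
Log2 expression (y axes, each on its own range) of the 10 genes on the 9 arrays. Points are arrays of the labelled double knockout, the NEMO knockout and wild type, and bars give the mean and SD (n = 3). In each panel the labelled double knockout points lie apart from all 6 other arrays.

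Colec11 recognises sugars on microbes and recruits the proteases of the lectin pathway of complement. Its values were 8.82, 8.63 and 8.59 in the labelled double knockout, 9.71, 9.61 and 9.95 in the NEMO knockout, and 9.45, 9.65 and 9.76 in wild type. Both other groups overlapped each other and stood above the labelled double knockout. The difference from the NEMO knockout was -1.08 ± 0.11, a signal 2.11-fold lower.

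Sntg2 tethers signalling proteins to the dystrophin complex at membranes. It read 7.40, 7.27 and 7.0 in the labelled double knockout, 8.04, 8.10 and 8.02 in the NEMO knockout, and 8.52, 8.18 and 8.49 in wild type. No groups overlapped, and the order ran from the labelled double knockout, lowest, through the NEMO knockout to wild type. The difference between the knockout groups was -0.83 ± 0.12, and the NEMO knockout lay -0.34 ± 0.12 from wild type.

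Acp1 removes phosphate from tyrosines. Its brightest probe set, 10355401, read 9.40, 9.40 and 9.45 in the labelled double knockout, 9.61, 9.66 and 9.65 in the NEMO knockout, and 9.66, 9.59 and 9.64 in wild type. The level of this probe set in the labelled double knockout was lower by a small step, -0.23 ± 0.06 against the NEMO knockout. That was the smallest difference among the brightest probe sets of the 10 genes. Acp1 was the gene among them with several probe sets, 5 in number, and these did not move one way. The next 3 by brightness, 10606532, 10557199 and 10491883, had differences of -0.23, -0.26 and -0.17.

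The dimmest Acp1 probe set, 10399820, ran opposite. It read 7.47, 7.62 and 7.49 in the labelled double knockout, 6.44, 6.33 and 6.47 in the NEMO knockout, and 6.52, 6.73 and 6.82 in wild type. Here the labelled double knockout was highest and the NEMO knockout lowest, and no groups overlapped. The difference between the knockout groups was 1.11 ± 0.09, larger than in any of the brighter probe sets, so that the mean of all 5 probe sets gives 0.0449 and the opposite sign. The direction for Acp1 therefore depends on the probe set. By identifier, 10399820 lies between the probe sets of Sntg2 (10399801) and Dld (10399825), both on chromosome 12. The identifiers of the brighter Acp1 probe sets lie elsewhere. Where each probe set maps was not tested. Probe sets annotated to Acp1 may share sequence with near-identical copies, so the level of the gene is uncertain.

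**Figure D2:**
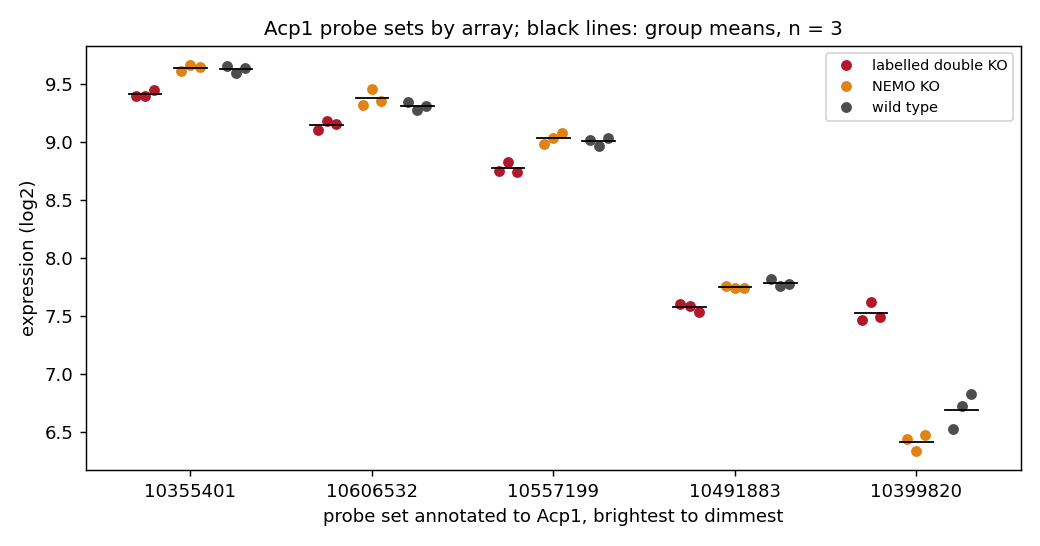
Log2 expression (y axis) of the 5 probe sets annotated to Acp1 (x axis, brightest at the left) by array. Points are arrays of the labelled double knockout, the NEMO knockout and wild type, and black lines are means (n = 3). The labelled double knockout is lowest in 10355401, 10606532, 10557199 and 10491883 and highest in 10399820.

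G2e3, whose start lies 20.5 Mb from that of Acp1, encodes a ubiquitin ligase most abundant as cells approach division. Its values were 7.03, 7.27 and 7.09 in the labelled double knockout, 6.10, 6.42 and 6.46 in the NEMO knockout, and 6.0, 5.90 and 5.97 in wild type. The groups formed 3 separate levels, with the labelled double knockout on top. It exceeded the NEMO knockout by 0.80 ± 0.10 and wild type by 1.17 ± 0.10. Proliferation markers had the same order, with list means from 8.53 to 8.79 in the labelled double knockout, 7.57 to 8.10 in the NEMO knockout and 5.89 to 6.94 in wild type. Their part in the level of G2e3 was not tested.

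On chromosome 14, Tmem260 read 9.23, 9.36 and 9.50 in the labelled double knockout, 8.30, 8.55 and 8.58 in the NEMO knockout, and 8.69, 8.76 and 8.57 in wild type. All 6 other arrays were below those of the labelled double knockout, while the NEMO knockout and wild type overlapped by a narrow margin. The difference between the knockout groups was 0.89 ± 0.10, the largest rise of the 10 genes.

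Arhgef40 read 7.56, 7.34 and 7.46 in the labelled double knockout, 7.97, 8.01 and 7.96 in the NEMO knockout, and 7.83, 7.71 and 7.84 in wild type. Wild type lay between the knockout groups, without overlap on either side. The labelled double knockout was -0.34 ± 0.07 and the NEMO knockout 0.19 ± 0.07 from wild type, which leaves -0.53 ± 0.07 between them.

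Rab2b directs vesicles at the Golgi and in autophagy. It read 6.82, 6.90 and 7.01 in the labelled double knockout, 7.60, 7.81 and 7.84 in the NEMO knockout, and 7.65, 7.69 and 7.67 in wild type. The NEMO knockout and wild type shared 1 range, and the labelled double knockout was below it by -0.84 ± 0.08 against the NEMO knockout. Tox4, whose start lies inside the annotated Rab2b gene, differed between the knockout groups by less than its own spread, with 7.68, 7.90 and 7.87 in the labelled double knockout, 7.65, 8.07 and 8.08 in the NEMO knockout, and 7.97, 8.19 and 8.07 in wild type.

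Cebpe drives late granulocyte maturation. It was dim, with 6.68, 6.86 and 6.67 in the labelled double knockout, 6.14, 5.93 and 5.83 in the NEMO knockout, and 5.64, 5.90 and 5.98 in wild type. None of the other arrays reached the labelled double knockout, which was higher by 0.77 ± 0.11 than the NEMO knockout. The 13 granulocyte markers had overlapping list means in the knockout groups, from 5.37 to 5.48 in the labelled double knockout, 5.45 to 5.88 in the NEMO knockout and 5.27 to 5.34 in wild type. None of them was called between the knockout groups, where their differences ran from -0.72 for Cxcr2 to 0.10 for Gfi1 with a median of -0.13, and Ngp, Retnlg and Csf3r had -0.53, -0.39 and -0.31. Their part in the level of Cebpe was not tested.

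Tedc2 on chromosome 17 had the largest difference of the 10 genes. It read 8.83, 8.37 and 9.01 in the labelled double knockout, 9.84, 9.67 and 10.002 in the NEMO knockout, and 10.20, 10.44 and 10.30 in wild type. The groups did not overlap, and the NEMO knockout lay between the others. Tedc2 in the labelled double knockout was lower, by -1.10 ± 0.16 against the NEMO knockout and by -1.58 ± 0.16, or 2.99-fold, against wild type.

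Pgap6, a phospholipase acting on anchored proteins, read 8.61, 8.64 and 8.50 in the labelled double knockout, 9.05, 9.22 and 9.04 in the NEMO knockout, and 8.90, 9.00 and 8.88 in wild type. Wild type was again in the middle, without overlap. The difference between the knockout groups was -0.52 ± 0.08.

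The 2 knockout groups did not stand alike against wild type, which the choice of genes fixed. The labelled double knockout was outside the wild-type range in 10 of 10 genes, a separation found in 25.1% of all probe sets, and the NEMO knockout in 5 (Sntg2, G2e3, Arhgef40, Tedc2 and Pgap6), against 23.2% of all probe sets. The absolute difference from wild type was larger in the labelled double knockout for 10 of 10 genes. Its median was 0.83 for the labelled double knockout and 0.19 for the NEMO knockout, beside 0.097 and 0.104 over all probe sets. The 2 differences had opposite signs in 6 genes: Colec11, Acp1, Tmem260, Arhgef40, Rab2b and Pgap6, although Acp1 in the NEMO knockout was only 0.01 from wild type. In all of these 6 but Arhgef40 and Pgap6, the NEMO knockout overlapped wild type. These differences share arrays with the one that chose the genes and carry no test. The shares of all probe sets with the larger difference in the labelled double knockout, or with opposite signs, are not given here.

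**Figure D3:**
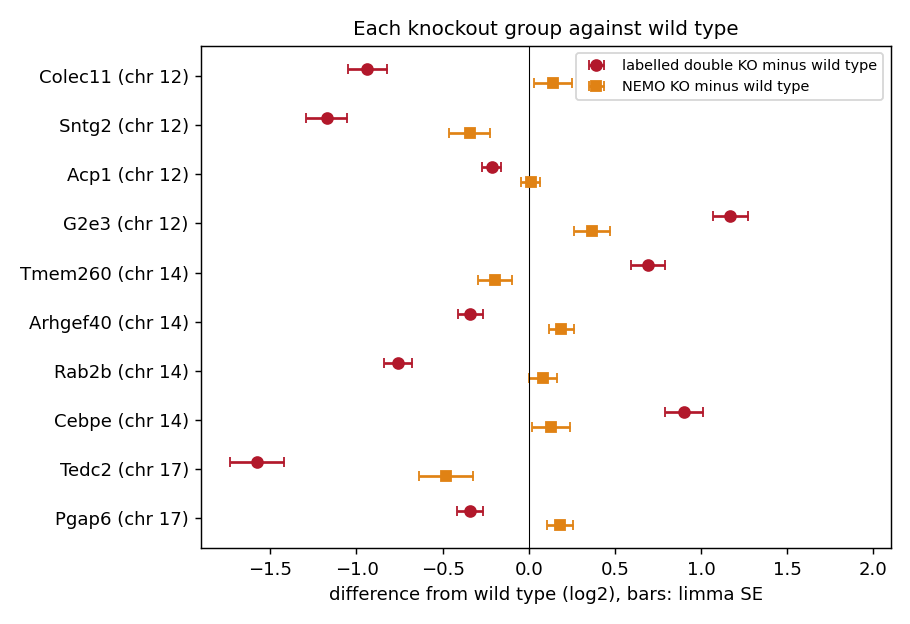
Difference from wild type on the log2 scale (x axis) for each of the 10 genes (y axis). Circles are the labelled double knockout and squares the NEMO knockout, with limma standard errors as bars (n = 3 arrays a group). Circles lie farther from 0 than squares for each gene, and on the other side of 0 for 6 of them.

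The mean of both knockout groups minus wild type is a separate contrast from the difference between the knockout groups, although a shift in 1 of them alone also moves it. Both contrasts use the same residual variance, so its p-values are not fully free of the choice of genes. By limma with Benjamini-Hochberg adjustment, 6 of the 10 genes passed an adjusted p of 0.05 (11.2% of all probe sets did). The mean of the knockouts was higher for G2e3, by 0.77 ± 0.09 (adjusted p = 0.000755), and for Cebpe, by 0.51 ± 0.10 (adjusted p = 0.00779). Increases of this kind made up 7.04% of all probe sets. The 4 lower ones, beside 4.2% of all probe sets, were Tedc2 at -1.03 ± 0.14 (adjusted p = 0.00138), Sntg2 at -0.76 ± 0.10 (adjusted p = 0.00155), Rab2b at -0.34 ± 0.07 (adjusted p = 0.0121) and Colec11 at -0.40 ± 0.10 (adjusted p = 0.0289). For Rab2b and Colec11 the mean of the NEMO knockout was above wild type, by 0.08 and 0.14, so the fall lay in the labelled double knockout. The rise of Cebpe also lay mostly there, at 0.90 ± 0.11. In the NEMO knockout Cebpe was 0.13 ± 0.11 above wild type and overlapped it. The Colec11 call was lost when any of 6 arrays was left out, labelled double knockout 2 or 3, NEMO knockout 1 or 2, or wild type 2 or 3, with adjusted p from 0.0537 to 0.127. Tmem260 at 0.25 ± 0.09 did not pass (adjusted p = 0.111), but did with array weights, at 0.30 (adjusted p = 0.0353), and without NEMO knockout 1, at 0.29 (adjusted p = 0.0455). Acp1, Arhgef40 and Pgap6 had -0.10 ± 0.05, -0.07 ± 0.06 and -0.08 ± 0.07 (adjusted p = 0.244, 0.547 and 0.534).

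The genes around the 10 were examined next, since position helped to choose them. Of the 404 other measured genes that start within 2 Mb, 2 (0.495%) were called between the knockout groups, beside 0.197% of all probe sets, and 51 (12.6%) had an unadjusted p under 0.05, beside 7.46% of all probe sets. Their median difference was 0.01 and their median absolute difference 0.086, beside 0.073 over all probe sets. The neighbours are single-symbol probe sets, while all probe sets include those with several symbols or none. Of 21698 single-symbol probe sets with a chromosome, 33 were called between the knockout groups. The 9 of the 10 selected genes called in this comparison, all but the brightest Acp1 probe set, were chosen on it. Of all 33 called probe sets with a chromosome, 14 (42.4%) lay on chromosomes 12, 14 and 17, which hold 11.4% of such probe sets. The 9 called selected genes make up most of these 14. They were chosen by this difference and by chromosome, so the share was largely set by the choice of genes.

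Abca3, a lipid transporter of lamellar bodies best known from lung, starts between Tedc2 and Pgap6 and rose. It averaged 10.36 ± 0.11 in the labelled double knockout, 9.38 ± 0.13 in the NEMO knockout and 9.42 ± 0.08 in wild type. The labelled double knockout was higher than the NEMO knockout by 0.98 ± 0.09 (limma, adjusted p = 0.00564), the opposite direction to its flanking selected genes. Akap6, an anchor for protein kinase A near G2e3, fell. It averaged 5.36 ± 0.16 in the labelled double knockout, 6.30 ± 0.02 in the NEMO knockout and 5.72 ± 0.01 in wild type, a difference of -0.94 ± 0.08 between the knockout groups (limma, adjusted p = 0.00564). Akap6 was also higher in the NEMO knockout than in wild type, by 0.58 (limma, adjusted p = 0.00264). Akap6 was dim, with each group mean below 6.53, the median over all probe sets. Both calls were made in 16 of 16 alternative fits, with adjusted p (limma) up to 0.0496 for Abca3 and 0.0411 for Akap6. A window of 1 Mb held 291 genes, with Abca3 the 1 called, and a window of 5 Mb held 570, with Rrm2 added.

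Next to Tedc2 lies Ccnf, encoding cyclin F, which read 7.84, 7.86 and 8.02 in the labelled double knockout, 7.08, 7.40 and 7.40 in the NEMO knockout, and 7.24, 7.33 and 7.30 in wild type. Its groups separated, but the difference of 0.61 ± 0.10 missed the threshold (limma, adjusted p = 0.0505) and passed in 3 of 16 alternatives. Ntn3, on the other side of Tedc2, had -0.30 (adjusted p = 0.14). Near Colec11 and Sntg2, Tmem18 had -0.48 (adjusted p = 0.128) and Trappc12 -0.45 (adjusted p = 0.125), both lower without overlap in the labelled double knockout. Further neighbours among the largest differences on their chromosome, none past the threshold, were Neurl1b at 0.68, Ccnb1ip1 at -0.68, Dlgap5 at 0.60, Dusp1 at 0.59, Arhgap5 at 0.49 and Gm5622 at 0.49, and Unkl came next on chromosome 17 at -0.55.

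The gene directly before and after each of the 10 gave 20 genes, of which limma called 0 between the knockout groups and 4 (20%) had an unadjusted p under 0.05, beside 7.46% of all probe sets. Their differences ran from -0.48 for Tmem18 to 0.61 for Ccnf, with a median absolute value of 0.10, beside 0.073 over all probe sets. Acp1 and Sh3yl1 start 57 bases apart and face away from each other. Sh3yl1 read 5.44, 6.10 and 5.61 in the labelled double knockout, 6.07, 6.15 and 6.17 in the NEMO knockout, and 6.51, 6.03 and 6.37 in wild type, with the knockout groups overlapping. Slc7a8, an amino acid transporter beside Cebpe, differed from wild type by 1.20 in the labelled double knockout and 1.15 in the NEMO knockout, and by 0.05 between them.

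The selected genes were themselves separated by genes that were not called. The 7 measured genes between Colec11 and Sntg2, the 2 between Sntg2 and Acp1 and the 56 between Acp1 and G2e3 had no call between the knockout groups. On chromosome 14 the 64 genes between Tmem260 and Arhgef40, the 8 between Arhgef40 and Rab2b and the 34 between Rab2b and Cebpe had none. On chromosome 17, Abca3 was the 1 call among the 89 genes between Tedc2 and Pgap6, and the 59 genes between Pgap6 and Cdkn1a had none.

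**Figure D4:**
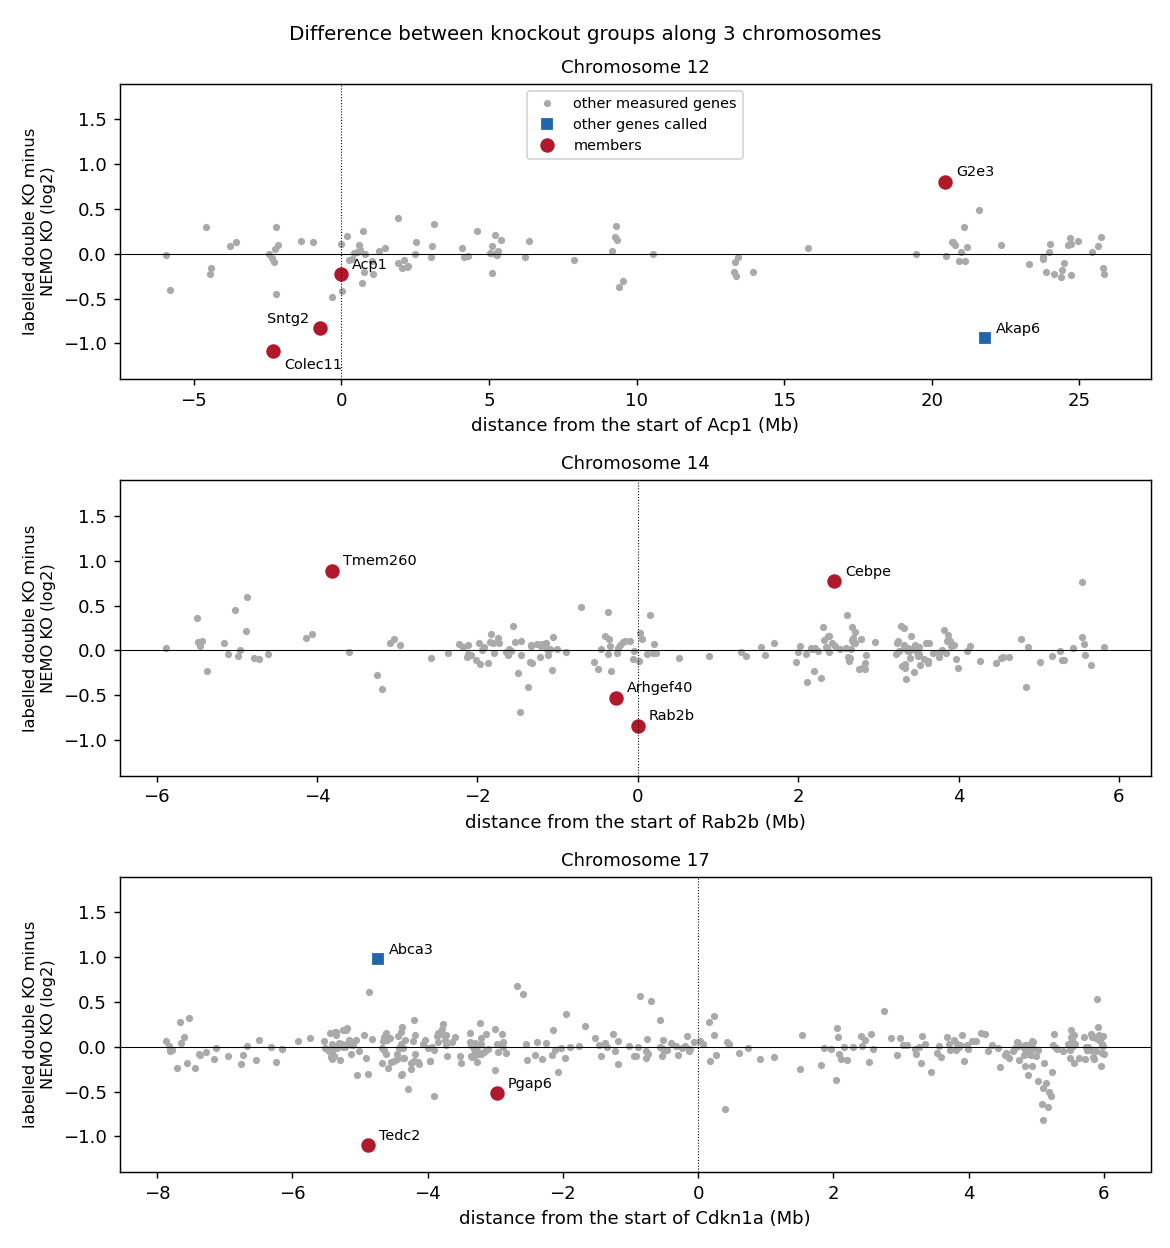
Difference between the labelled double knockout and the NEMO knockout on the log2 scale (y axes) for measured genes against distance in Mb from the start of Acp1, Rab2b or Cdkn1a (x axes, dotted line). Large circles are the selected genes, squares are other called genes in view (Abca3 and Akap6), and small points are the remaining genes. Most points lie near 0, and the selected genes lie at both signs within each of the first 2 chromosomes.

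Against wild type, 54 of the 404 neighbours (13.4%) were called in the labelled double knockout, 24 higher and 30 lower, beside 9.32% of all probe sets (5.81% higher, 3.51% lower). In the NEMO knockout 34 (8.42%) were called, 20 higher and 14 lower, beside 7.68% of all probe sets (5.66% higher, 2.02% lower). The 2 comparisons share the wild-type arrays, and the difference between these counts was not tested.

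Genes related to the 10 by function were read from 10 lists with 79 measured genes. None was called between the knockout groups by limma, which is near the 0.197% called over all probe sets. Against wild type, 13 were called in the labelled double knockout (9 higher, 4 lower), beside 9.32% of all probe sets. In the NEMO knockout 10 were called against wild type (6 higher, 4 lower), beside 7.68% of all probe sets. Among collectins and their proteases, Colec10, the partner of Colec11, had 0.24 ± 0.12 between the knockout groups (adjusted p = 0.698), and was lower than wild type in the NEMO knockout, by -0.55 (adjusted p = 0.0207). Mbl1, a mannose-binding lectin, fell in both, by -0.69 in the labelled double knockout (adjusted p = 0.00511) and -0.50 in the NEMO knockout (adjusted p = 0.0276). Mbl2, the other mannose-binding lectin, rose in the labelled double knockout against wild type, by 0.59 (adjusted p = 0.0373), and Masp1, a protease of the pathway, fell there by -0.24 (adjusted p = 0.0465). Sntg1, the closest relative of Sntg2, was higher than wild type in the labelled double knockout, by 0.92 (adjusted p = 0.0221), where Sntg2 was lowest. Of the 8 measured genes of that family, Dtnb was the other called, higher by 0.32 in the labelled double knockout than in wild type (adjusted p = 0.0107).

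For the other families, Rab2a, the paralog of Rab2b, had -0.08 ± 0.07 between the knockout groups (adjusted p = 0.869). Cebpa, Cebpb and Cebpd had -0.32, 0.37 and 0.38 (adjusted p = 0.637, 0.778 and 0.767). Tedc1, the partner of Tedc2 in its complex, had 0.29 ± 0.14 (adjusted p = 0.683), while Tedc2 was lower. Of 9 centriole and tubulin complex genes listed with it, 3 rose against wild type in the labelled double knockout and 2 in the NEMO knockout, Plk4 by 1.02 in the labelled double knockout (adjusted p = 0.000273) and 0.51 in the NEMO knockout (adjusted p = 0.00897), and Stil by 1.36 (adjusted p = 0.00081) and 0.65 (adjusted p = 0.0336) in the same order. Of 6 measured genes of the ubiquitin system listed with G2e3, Cdc20 and Rad18 rose in both knockout groups, Cdc20 by 1.72 in the labelled double knockout (adjusted p = 0.00065) and 1.01 in the NEMO knockout (adjusted p = 0.00992). Among 7 genes of small tyrosine phosphatases, Ptpn6 was the 1 called, higher than wild type in the NEMO knockout by 0.25 (adjusted p = 0.0402). Of 7 genes listed with Tmem260, Pomt2, an O-mannosyltransferase, fell in both, by -0.35 in the labelled double knockout (adjusted p = 0.0338) and -0.40 in the NEMO knockout (adjusted p = 0.0221). Of 9 lipid-anchor remodelling genes listed with Pgap6, 0 were called in any of the 3 comparisons.

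Of 69 measured markers of liver cell types and of proliferation, 28 were called higher in the labelled double knockout than in wild type, beside 5.81% of all probe sets. In the NEMO knockout 31 were, beside 5.66% of all probe sets. Between the knockout groups 1, Rrm2, was called, beside 0.197% of all probe sets. Macrophage markers rose in both for 8 of 10 genes, Cd68 by 1.31 in the labelled double knockout and 1.22 in the NEMO knockout, and stellate cell markers for 6 of 9, Cygb by 1.16 and 1.38 in the same order. Of the granulocyte markers, Csf3r rose in the labelled double knockout, by 0.36 (adjusted p = 0.0346), and in the NEMO knockout, by 0.68 (adjusted p = 0.00207), and Retnlg rose in the NEMO knockout, by 0.76 (adjusted p = 0.0309). Lymphocyte markers gave 0 calls in the labelled double knockout against wild type and 3 of 7 in the NEMO knockout, and ductular markers gave 2 of 5 in each. The defining markers of hepatocytes and endothelial cells gave 0 calls in the 3 comparisons, while 11 of 11 proliferation markers rose in the labelled double knockout and 10 of 11 in the NEMO knockout. Rrm2, the small subunit of ribonucleotide reductase, exceeded the NEMO knockout by 1.65 ± 0.23 in the labelled double knockout (limma, adjusted p = 0.0348), and no marker was called without labelled double knockout 1, 2 or 3, without NEMO knockout 3, or without wild type 2 or 3. The part of cell makeup in the values of the 10 genes was not tested.

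The genes most like each of the 10 over the 9 arrays were found among 12726 genes with a mean of at least 6, by Pearson's r, which here reflects the same 3 groups of arrays. G2e3 followed Rrm2 (r = 0.99) and Fam110a (r = 0.98). Colec11 and Acp1 each had Rab2b among their closest genes (r = 0.95 and 0.98), and for Rab2b the closest was Acp1. Acp1 here is its brightest probe set. Tmem260 on chromosome 14 was nearest to Ccnf and Abca3 on chromosome 17 (both r = 0.96). The closest to Cebpe were Bard1 (r = 0.97) and Postn (r = 0.94), and to Tedc2 Rps2, on its own chromosome, and Nploc4 (both r = 0.96). Rps2 belongs to a family of near-identical copies and is uncertain. Sntg2 was nearest to Anpep and Ogfod2 (both r = 0.97), Acp1 also to Arel1 (r = 0.98), Colec11 also to Ppp2r5a (r = 0.95) and Rab2b also to Cpsf4 (r = 0.96). For Arhgef40 they were Nr4a2 (r = 0.93) and Defb46 (r = 0.92), and for Pgap6 Scand1 (r = 0.95) and Flii (r = 0.92).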

How the data were processed

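RNA of 9 whole-liver samples was hybridised to Affymetrix gene arrays, 3 per group. The authors deposited log2 values, made with RMA per the submitters' processing notes. The log base was taken from RMA and the range of the values, and neither versions nor the genome build are given in the sources used. RMA brings all arrays to 1 distribution, so a change of total RNA would not be seen.

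Of 35556 probe sets, 6617 with identifiers below the first annotated one were left out as controls, an inference from the identifiers, and 28939 were tested. No 2 arrays were identical. Array medians over the tested probe sets were 6.47 to 6.48 in wild type, 6.52 to 6.58 in the NEMO knockout and 6.53 to 6.55 in the labelled double knockout. Both knockout groups thus lay above wild type by an offset of the size of the smallest differences given here. The platform annotation gave 1 symbol to 21789 probe sets, several to 1621 and none to 5529. Of those with 1 symbol, 21698 matched the RefSeq gene table of GRCm38.p6 and 91 did not. Gene order and distance come from that table, whose build is not known to be that of the array.

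A limma model (version 3.58.1, R 4.3.3) with a mean for each group was fitted to the 9 arrays together, with lmFit and then eBayes, no trend. Benjamini-Hochberg adjustment ran over all probe sets tested, and an adjusted p under 0.05 was a call. The fit was tested on simulated data. Genes with several probe sets were represented by the brightest one. The 10 genes, the gene lists, the neighbour windows and the tests were chosen with earlier results of these data known. Named beside the 10 genes are Ikbkg and Cdkn1a, called neighbours and up to 3 further ones per chromosome, the genes directly adjacent, close family mates and called list genes, and 2 genes per selected gene by correlation. The marker examples Alb, Hnf4a, Cd68 and Cygb, and Tox4 and Sh3yl1 as shared-start genes, were named for their function or position. Cxcr2, Gfi1, Ngp and Unkl were named after their values were seen. The genes of 1 list are not reported here beyond their part in the counts. Alternatives were median centring, quantile normalisation, array weights, a variance trend, a filter at a mean of 5, a replicate block, a fit of only the groups compared, other windows, the mean of all probe sets and leaving out each array. The number of arrays limits the precision.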

Additional observations from a re-analysis of the deposited data

Results flagged for a closer look

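In 7 of the probe sets of named genes, every array of the labelled double knockout lay on one side of all wild-type arrays and every array of the NEMO knockout on the other. The share of all probe sets with this order is not given here, so the count is a description. Among the 10 genes, the difference between the knockout groups was 1.11 for Acp1 probe set 10399820, -0.53 for Arhgef40 and -0.52 for Pgap6. This difference was not tested, since it chose the genes. It was -0.94 for the neighbour Akap6, which was called between the knockout groups. For Scand1, Flii and Nr4a2, named for their likeness to Pgap6 or Arhgef40, it was -0.40, -0.25 and -0.18 and is given without a test. Pgap6 and Arhgef40 have this order, so genes chosen for likeness to them were likely to share it.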

How the results depend on the processing

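The differences of the 10 genes between the knockout groups were recomputed 170 times, and 169 kept their direction and moved by less than 1 SD. The exception was Acp1, at 0.0449 with the mean of all its probe sets. The count of genes called against wild type for both knockouts together was 6, 5 to 6 with an array left out and 7 with array weights. The 10 genes stayed separated between the knockout groups in each run, by their choice. The count of called neighbours, 2, was 1 with a window of 1 Mb and 3 with a window of 5 Mb. It was also 3 with array weights, the filter at a mean of 5 or quantile normalisation, each adding Ccnf, and with the variance trend, adding Rps2. The count of list genes called between the knockout groups, 1, was 2 with only the groups compared, 0 with the replicate block and 0 to 3 with an array left out. Over all probe sets, 57 were called between the knockout groups, but 18 with the replicate block, 23 with only the groups compared, 31 with median centring and 10 to 44 with an array left out. The cause was not tested. Same-numbered arrays had r from -0.116 to 0.391 and other pairs -0.301 to 0.183. Between the knockout groups the same-numbered values were 0.391, 0.083 and 0.247, and NEMO knockout 2 correlated more with labelled double knockout 3 (0.115), so the numbers were not taken as pairs. These recounts over lists and over all probe sets were chosen after seeing the data. Against wild type, leaving out arrays gave 1601 to 2720 calls in the labelled double knockout and 1382 to 2335 in the NEMO knockout, and among neighbours 33 to 49 in the labelled double knockout and 15 to 31 in the NEMO knockout. NEMO knockout 1 had the lowest array weight, 0.412. With 3 arrays per group, small differences such as that of the brightest Acp1 probe set can be missed.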
